A study of Rattus norvegicus with 9 samples.

Results

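The genes described here encode the proteins of the cytosolic ribosome in rat bladder. They were chosen by their current RefSeq symbol, Rpl or Rps followed by a number and at most a letter or an l, together with Rplp0, Rplp1, Rplp2 and Rpsa, and the kinases named Rps6k were left out. RefSeq lists 79 such genes. A total of 74 had at least 1 probe on the array, while 5, among them Rps9, Rpl26, Rpl37 and Rps27l, had none. The probe of Rpl3l, a paralog of Rpl3 known from striated muscle, was well above background on 0 of 9 arrays and was left out. The remaining 73 genes, of 11681 genes tested, were well above background on all 9 arrays. They comprised 41 large-subunit genes, 28 small-subunit genes, 3 stalk genes and 1 ubiquitin fusion.

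RNA from the bladders of female rats was hybridised to 9 Agilent arrays in 1 colour, 3 arrays per group, at 3 weeks after surgery. In the sham group the urethra was not ligated. In the pBOO group (partial bladder outlet obstruction) a ligature was tied around the proximal urethra together with a catheter of 1 mm outer diameter. The last group had pBOO and received tolterodine, an antagonist of muscarinic receptors that relaxes the bladder muscle. The labels speak of 5 specimens in each group and 1 µg of RNA. Whether an array holds pooled animals is not said, and p-values therefore cover only the variation from array to array. In the treatment text the letters for obstruction and sham surgery are the other way round from the sample codes. Groups follow the titles here, and every direction below rests on them.

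Each ribosome joins a small subunit, which reads the mRNA, to a large subunit, which forms the peptide bond, and cells make the proteins of both in nearly equal numbers. Because ribosomes are so abundant, the mRNAs for these proteins are among the most abundant in any tissue. Most of them begin with a run of pyrimidines, the terminal oligopyrimidine tract, through which growth signalling by mTOR controls their translation. Growing tissue needs more ribosomes, and the supply of ribosomal proteins is coordinated with ribosomal RNA synthesis.

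Levels are the log2 processed signal minus the 75th percentile of the same array, so 0 is that percentile and 1 unit is a doubling. The intensity at the 75th percentile was 587 to 820 on the sham arrays, 951 to 1441 on the pBOO arrays and 523 to 1076 on the arrays of pBOO with tolterodine. Scan times in the file headers divide the arrays. Sham 2 and 3 were scanned with tolterodine 1 and 2, sham 1 was scanned with the 3 pBOO arrays, and tolterodine 3 was scanned alone. No scan held both pBOO and tolterodine arrays. No spot was saturated on any array.

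The start of the transcript is shown for several genes because the pyrimidine run there is the feature that these mRNAs are best known to share. The windows run from 10 bases before to 20 bases into the annotated transcript, 5′ to 3′, from the RefSeq promoter table of GRCr8. Capitals mark an unbroken run of C and T that opens with C on the annotated first base and is at least 5 bases long.
Rplp0 (chr12:46718371-46718400, minus strand): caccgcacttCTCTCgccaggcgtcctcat
Rpl10 (chrX:157205840-157205869, plus strand): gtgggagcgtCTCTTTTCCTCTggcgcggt
Rpl22 (chr5:168117951-168117980, plus strand): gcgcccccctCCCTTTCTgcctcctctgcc
Rpl37a (chr9:81748081-81748110, plus strand): cccgttgcgtCTCTTCCTCTTCgggcttgg
Rpl39 (chrX:121195877-121195906, minus strand): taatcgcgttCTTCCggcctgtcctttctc
Rps18 (chr20:4933735-4933764, plus strand): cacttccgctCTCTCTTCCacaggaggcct
Rps26 (chr7:1643385-1643414, minus strand): ccgccgggtcCTCTTTCgagtcttggctcc
Rps27 (chr2:177964587-177964616, minus strand): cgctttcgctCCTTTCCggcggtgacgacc
For comparison, 3 windows hold no such run at the annotated base, although in Rpl3 a pyrimidine run opens there with T.
Rpl3 (chr7:113507971-113508000, minus strand): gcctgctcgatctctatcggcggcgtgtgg
Rps6 (chr5:106420521-106420550, minus strand): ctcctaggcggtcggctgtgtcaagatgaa
Rpl3l (chr10:14258436-14258465, plus strand): ctggtgcctggtggggaggtcccttcctaa

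The promoter table holds 64 of the 79 genes. The run opened the annotated transcript in 24 of these 64 (37.5%), against 3.11% of all 27457 genes in the table. A run of at least 8 pyrimidines lay within 25 bases of the start in 81.2% of the ribosomal protein genes and in 21.2% of all genes. Over the 300 bases around the start, on either strand, CCGGAAG was found in 31.2% of the ribosomal protein genes and 9.63% of all genes. TCGCGAGA was found in 18.8% and 0.965%, and AAGATGGC, in 5 ribosomal protein genes, in 7.81% and 3.62%. Among genes tested on these arrays the background was higher. There CCGGAAG was found in 30.5% of the ribosomal protein genes and 16.4% of all genes, TCGCGAGA in 18.6% and 1.78%, and AAGATGGC in 8.47% and 4.92%. The reverse complement of CCGGAAG opens with pyrimidines and can overlap such a run. These matches describe the letters of the windows.

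The ribosomal protein genes were among the brightest on every array, with a median percentile among all genes between 99.5 and 99.6. The median level over the 73 genes was 6.44, 6.54 and 6.62 on the sham arrays. It was 5.74, 5.98 and 6.02 on the pBOO arrays. With tolterodine it was 6.26, 6.13 and 6.56. The pBOO arrays were thus lowest and did not overlap the other groups, and the sham and tolterodine arrays overlapped. Single arrays stood out within their groups: 72 of the 73 genes had their lowest level on pBOO 1, and 25 had their highest on tolterodine 3, which was scanned alone. Another 37 had their highest level on sham 3.

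**Figure D1:**
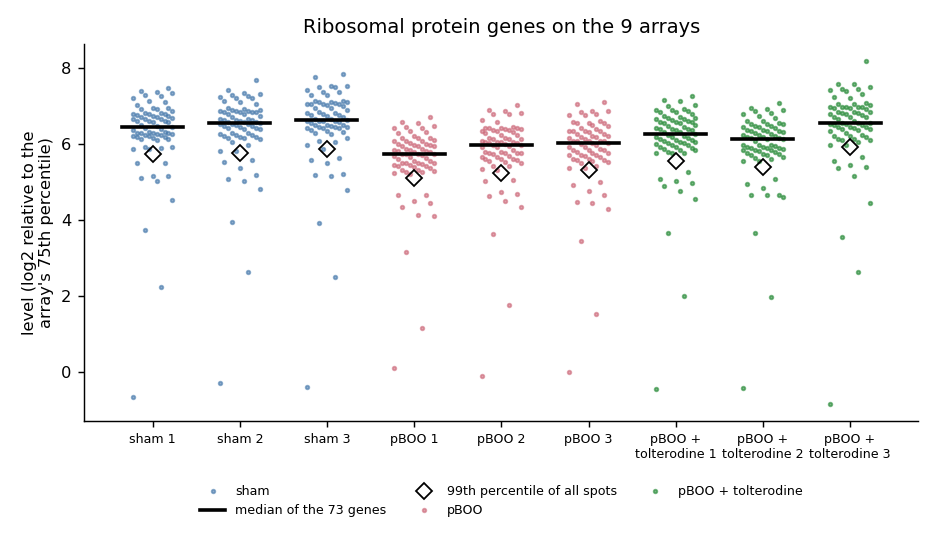
Level of the 73 ribosomal protein genes on each array (log2 relative to the array's 75th percentile), 1 point per gene, with the median as a bar and the 99th percentile of all spots as a diamond. The medians of the pBOO arrays (5.74 to 6.02) lie below those of the sham (6.44 to 6.62) and tolterodine arrays (6.13 to 6.56), and the diamonds move in the same way.

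The upper end of the whole array moved with these genes. Most of them lie at that end themselves, so its position is not a separate measure. The 99th percentile of all spots, relative to the 75th, was 5.74 to 5.87 on sham arrays, 5.11 to 5.30 on pBOO arrays and 5.38 to 5.93 with tolterodine. Before any scaling, the median intensity of the ribosomal protein genes overlapped between groups, at 57800 to 76500 for sham, 61500 to 77100 for pBOO and 49300 to 75400 for tolterodine. The part of the array's scale in the differences below was not tested beyond the repeat runs given with them.

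Obstruction against sham surgery asks what the obstructed bladder wall does to the supply of ribosomal protein mRNA. Relative to the 75th percentile, 69 of the 73 genes fell in pBOO and 1 rose, while Rpl5, Rpl38 and Rpl41 did not pass the test (limma, adjusted p below 0.05). The median change was -0.66, with the middle 50% of genes between -0.728 and -0.595, against -0.045 over all genes tested. Of all genes tested, 22.8% were called lower and 20.5% higher, 43.3% in all. The pBOO arrays lay wholly below the sham arrays for 71 of the 73 genes and wholly above for 1, against 30.3% and 25.2% of all genes. Bringing the arrays to the same distribution removed most of the fall. With quantile scaling 4 genes fell and 1 rose, at a median of -0.07, and the background was 21.3% lower and 20.6% higher. With cyclic loess 2 fell and 1 rose, at a median of 0.05 (background 20.4% and 21.1%). These genes are among the brightest on every array, and both scalings largely remove a shift that the brightest probes share, whatever its source. These runs therefore cannot tell a shared fall of the mRNA from a change in the array's scale. Without any scaling 0 fell and 1 rose, at -0.01 (background 3.06% and 32.5%), and 0 were lower at an unadjusted limma p under 0.05. In that run the median over all genes was 0.61, so these genes still lay below it. Leaving out the scaling only shifts all genes of an array by the same amount. Rises made up 47.3% of all calls on the main scale, 37.8% with normexp and 91.4% without scaling.

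**Figure D2:**
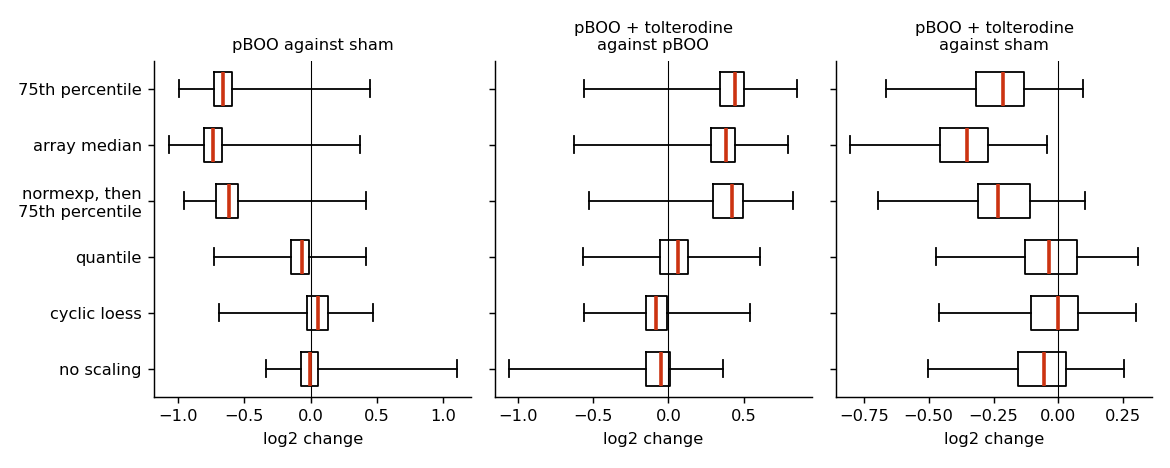
Log2 changes of the 73 ribosomal protein genes in the 3 comparisons under 6 scalings, as boxes (quartiles, median in red) with whiskers to the lowest and highest gene. In pBOO against sham the median is -0.66, -0.74 and -0.62 with the 75th percentile, the array median and normexp, and -0.07, 0.05 and -0.01 with quantile, cyclic loess and no scaling.

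The stalk genes encode the flexible arm of the large subunit that brings elongation factors to the ribosome. All 3 fell in pBOO on the main scale, against 22.8% of all genes, at a median of -0.59. Rplp0, the anchor of the stalk, read 7.36, 7.33 and 7.48 on the sham arrays and 6.32, 6.78 and 6.77 on the pBOO arrays. The groups did not overlap, and pBOO 1 was the lowest array. The change was -0.77 (SE 0.18, limma adjusted p = 0.00836). Rplp1 changed by -0.592 and Rplp2 by -0.565, with adjusted p-values of 0.0435 and 0.0458. With cyclic loess the changes of Rplp0, Rplp1 and Rplp2 were 0.03, 0.18 and 0.24.

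Of the 41 large-subunit genes, 37 fell and 1 rose, against 22.8% and 20.5% of all genes, at a median of -0.645. The largest fall was that of Rpl22, an RNA-binding protein on the outer face of the subunit. It read 6.12, 6.83 and 6.60 on the sham arrays and 5.42, 5.53 and 5.61 on the pBOO arrays. The sham arrays spread more widely than the pBOO arrays but did not overlap them, and the change was -0.99 (SE 0.18, adjusted p = 0.00255), which is 0.502 of the sham level. Next came Rpl27a, at -0.94 (adjusted p = 0.0034). It also passed with quantile scaling, at -0.34 (adjusted p = 0.0446), while Rpl22 did not.

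Rpl5 and Rpl11, which with a small ribosomal RNA bind and restrain Mdm2, did not move alike on the test. Rpl11 read 6.51, 6.58 and 6.72 on the sham arrays and 5.70, 6.06 and 6.02 on the pBOO arrays, without overlap, a change of -0.67 (SE 0.17, adjusted p = 0.0139). Rpl5 read 4.53, 4.81 and 4.78 on the sham arrays and 4.13, 4.68 and 4.48 on the pBOO arrays. Its groups overlapped, and the change of -0.28 (SE 0.16) did not pass (adjusted p = 0.188). The difference between Rpl5 and Rpl11 was not tested.

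Other large-subunit genes of known role fell by similar amounts. Rpl3, which lies close to the site of peptide bond formation, changed by -0.49 (adjusted p = 0.0465). Rpl10, a late-joining protein needed for the subunits to meet, changed by -0.50 (adjusted p = 0.00861). Rpl13a, often used as a reference gene and known for another role in silencing inflammatory mRNAs, changed by -0.74 (adjusted p = 0.00836). Rpl36a and Rpl39, the latter a protein that lines the exit tunnel, changed by -0.57 and -0.64. Rpl38, linked to translation of Hox mRNAs, changed by -0.62 with groups that did not overlap, yet did not pass (adjusted p = 0.0523). Rpl41, among the shortest proteins known, changed by -0.61, also without overlap (adjusted p = 0.0962).

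Rpl15, a large-subunit protein needed for the maturation of that subunit, went the other way. It read -0.66, -0.27 and -0.39 on the sham arrays, 0.12, -0.08 and 0.00 on the pBOO arrays and -0.43, -0.40 and -0.82 with tolterodine. The pBOO arrays were highest, with no overlap with either other group. The change in pBOO was 0.45 (SE 0.15, adjusted p = 0.0433), and the change of tolterodine against pBOO was -0.56 (SE 0.15, adjusted p = 0.0185). Only 1 probe stands for this gene, and its level lay near the 75th percentile of the arrays. Relative to the median of the ribosomal protein genes it read -7.38 (tolterodine 3) to -5.62 (pBOO 1), far dimmer than the family. Whether this probe reads the mRNA as the brighter probes do was not tested. Over the alternatives that kept the group names, apart from centring on the family (given below), the change in pBOO was 0.341 to 1.103, with adjusted p-values from 0.00409 to 0.116. It passed with quantile scaling (adjusted p = 0.0499), cyclic loess (adjusted p = 0.0447) and no scaling (adjusted p = 0.0143). It did not pass with the array median, normexp, no filter, the replicate block, or when any of 7 single arrays was left out.

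All 28 small-subunit genes fell on the main scale, against 22.8% of all genes, at a median of -0.68. Rps26, which contacts the mRNA at the exit channel, read 2.24, 2.62 and 2.50 on the sham arrays and 1.18, 1.77 and 1.54 on the pBOO arrays. The groups were separated, with pBOO 1 lowest, and the change was -0.96 (SE 0.22, adjusted p = 0.00769). Rps13 read 5.01, 5.19 and 5.18 on the sham arrays and 4.10, 4.34 and 4.28 on the pBOO arrays, a change of -0.89 (SE 0.16, adjusted p = 0.00212). These were the 2 genes called lower with both quantile scaling (-0.73 and -0.38) and cyclic loess (-0.69 and -0.34).

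The best-known small-subunit genes lay close together. Rps6, whose protein is the classical substrate of the kinases that mTOR activates, read 6.12, 6.29 and 6.41 on the sham arrays and 5.31, 5.75 and 5.70 on the pBOO arrays. The groups did not overlap, and the change was -0.69 (SE 0.15, adjusted p = 0.0065). Rps18 changed by -0.84 (adjusted p = 0.00232) and Rps19, the gene most often mutated in Diamond-Blackfan anaemia, by -0.80 (adjusted p = 0.00684). Rps14 changed by -0.61, Rps3, which lines the mRNA entry, by -0.67, and Rps27 by -0.64. Rpsa, also known as the laminin receptor precursor, changed by -0.60 (adjusted p = 0.0179). The smallest fall belonged to Rps4x, the X-linked form of Rps4, at -0.46 (adjusted p = 0.0284). Rps27a, made as a fusion with ubiquitin, changed by -0.75 (SE 0.18, adjusted p = 0.0101).

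**Figure D3:**
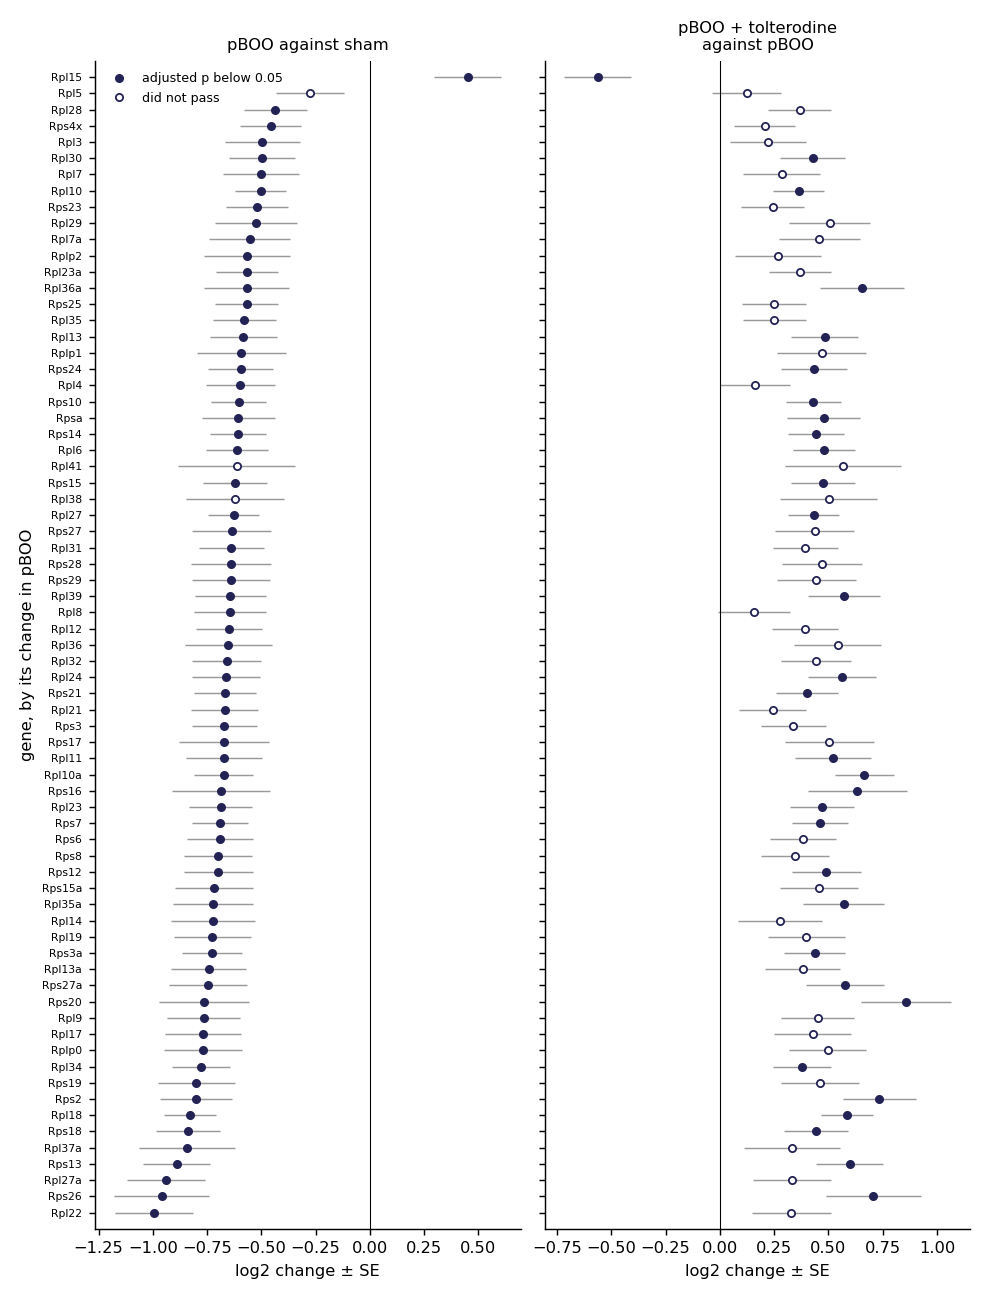
Log2 change ± SE of 71 of the 73 genes in pBOO against sham (left) and pBOO with tolterodine against pBOO (right), on the 75th percentile scale, ordered by the left panel. Filled points passed the limma test, 68 of 71 on the left and 31 on the right, and Rpl15 is the gene with the opposite sign in both.

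The size of the fall varied little among the genes. When each array was centred on the median of the ribosomal protein genes, a repeat added after the data were seen, 63 of 73 genes lay within 0.2 of the family in pBOO against sham. Rpl15 was the single gene called, at 1.07 (SE 0.23, adjusted p = 0.00349). Among the 10 outside that limit were Rpl22 (-0.37), Rps26 (-0.34), Rpl27a (-0.32) and Rpl5 (0.35), none of which passed. In tolterodine against pBOO on this scale, Rpl15 (-0.96, adjusted p = 0.00892) and Rps20 (0.46, adjusted p = 0.0427) were called. In tolterodine against sham, limma called 0 genes (3 at an unadjusted p under 0.05) and 61 lay within 0.2.

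**Figure D4:**
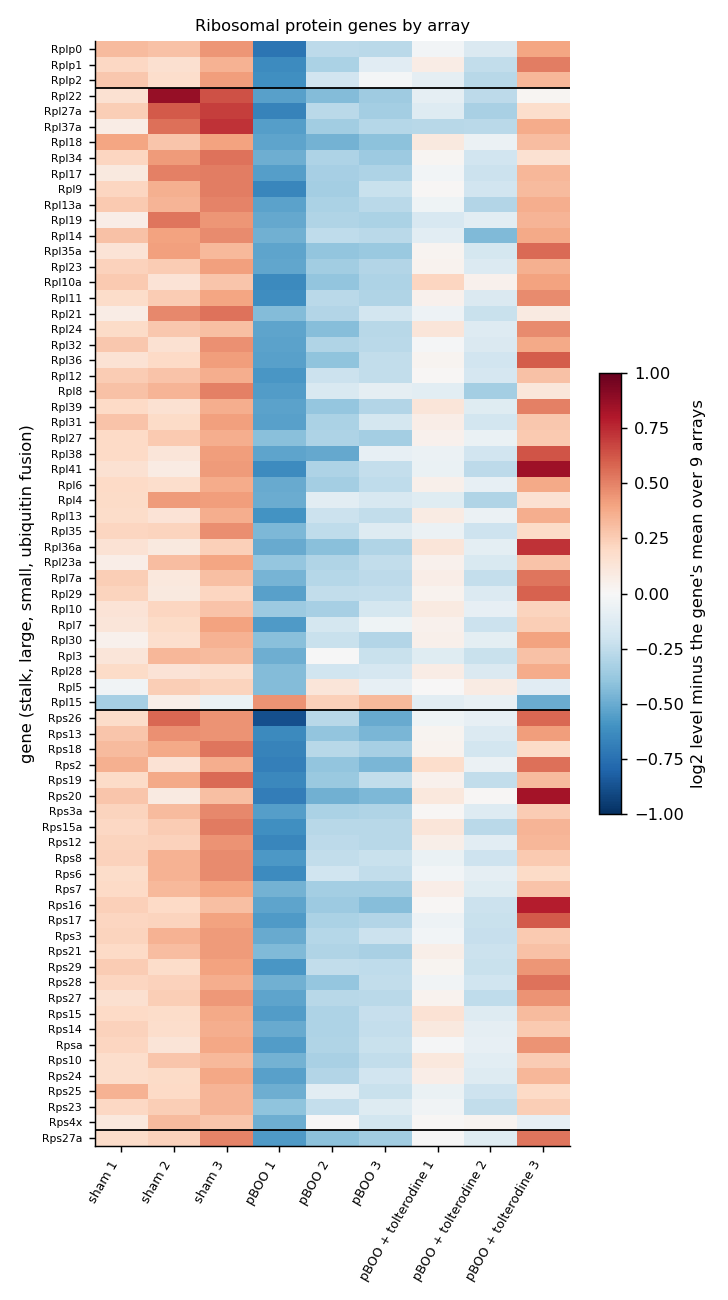
Level of each gene on each array minus the gene's mean over the 9 arrays (log2, red higher, blue lower), by role, for 71 of the 73 genes. The pBOO columns are mostly blue, and pBOO 1 is the lowest array for 72 of the 73 genes, tolterodine 3 is red for most genes, and the row of Rpl15 has the opposite pattern.

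Separate probes of a gene moved the same way on this scale. Of 130 probes kept, 129 were lower in pBOO, and for all 44 genes with more than 1 probe the probes had 1 sign. The 57 probes that do not stand for their gene were all lower, at a median of -0.67. Of the 31 probes with a mean level under 5, 30 were lower, at a median of -0.64. RefSeq names 901 pseudogenes after 49 of these genes, so a probe may also read a near-identical copy. Between 42.9% and 60.4% of the spots of these genes carried a quality flag on an array, nearly all of them outlier flags of the local background. The flagged spots were kept. With them set to missing, 16 of the genes could be tested, 11 fell and 1 rose, at a median of -0.66. In that run 2366 of all 10961 genes fell and 2257 rose.

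Sham 1 is the sham array scanned with the pBOO arrays. Against it alone, the median change in pBOO was -0.58, with 10 genes lower and 1 higher, against 13.1% and 13.6% of all genes. Only the 3 pBOO arrays supply the spread in that fit, and the lone sham array is assumed to vary like them. With scan as a fixed block, 55 fell and 1 rose, against 23.5% and 20.7% of all genes. The estimate there also rests on sham 1 alone, so its median is again -0.58. When sham 3 was left out, 40 fell, against 1934 of all 11681 genes. With any other single array left out, 49 to 71 fell, against 2045 to 2919 of all genes.

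The values were also set out by the start of the transcript. The 23 tested genes whose transcript opens with the run had a median change of -0.72 in pBOO, and all 23 fell. The 36 other genes with a promoter entry had a median of -0.65, and 33 fell. Among all genes tested 22.8% fell and 20.5% rose. The difference between these sets was not tested. The sets depend on the annotated first base: of all 59 genes, 49 hold a run of at least 8 pyrimidines within 25 bases of the start. Outside the ribosomal proteins, 237 tested genes have such a start, with a median of -0.065, of which 26.6% fell and 18.1% rose.

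Tolterodine with obstruction was compared with obstruction alone to ask what the drug changes in the obstructed bladder. This comparison uses the same pBOO arrays as the first, so these comparisons are not independent. Relative to the 75th percentile, 31 of 73 genes rose, 1 fell (Rpl15) and 41 did not pass, at a median of 0.44 against 0.12 over all genes. Of all genes tested, 26.6% were called higher and 15.3% lower, 41.9% in all. The tolterodine arrays lay wholly above the pBOO arrays for 52 of the 73, against 36.7% of all genes, and wholly below for 1, against 21.5%. With quantile scaling 4 rose and 1 fell, at a median of 0.06 (22.5% and 20.3% of all genes). With cyclic loess 1 rose and 5 fell, at -0.08 (22.5% and 19.1% of all genes). Quantile scaling and cyclic loess carry the limit given above for the brightest probes. Without scaling 0 rose and 1 fell, at -0.05 (5.44% and 16.8%), with 0 higher at an unadjusted limma p under 0.05. The median over all genes was then -0.37, so these genes still lay above it. Among all calls, 63.5% were rises on the main scale, 52.5% with quantile scaling and 24.5% without scaling.

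The genes that rose came from both subunits, 15 of 41 large and 15 of 28 small, together with Rps27a, against 26.6% of all genes. Among the 3 stalk genes 0 passed limma's adjusted test and 2 had an unadjusted p under 0.05. Rps20, of the head of the small subunit, read 5.43, 5.64 and 5.67 on the pBOO arrays and 6.22, 6.14 and 6.96 with tolterodine. The groups did not overlap, tolterodine 3 was highest by far, and the change was 0.86 (SE 0.21, adjusted p = 0.0109). Rps2, at the mRNA entry, read 5.32, 5.61 and 5.55 on the pBOO arrays and 6.18, 5.95 and 6.56 with tolterodine, a change of 0.73 (SE 0.17, adjusted p = 0.00803). Rps26 changed by 0.71 (adjusted p = 0.0299) and Rpl10a by 0.67 (adjusted p = 0.0046).

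The 4 genes called higher with quantile scaling included Rps26 (0.61), Rps20 (0.47) and Rps2 (0.35). Among the other named genes, Rpl36a rose by 0.66, Rps27a by 0.58, Rpl39 by 0.57 and Rpl11 by 0.52. Rplp0 (0.50, adjusted p = 0.052), Rps6 (0.38, adjusted p = 0.0722) and Rps19 (0.46, adjusted p = 0.066) did not pass, although none of their tolterodine arrays overlapped the pBOO arrays. The count depended on single arrays. It was 6 without pBOO 1, 12 without pBOO 3, 13 without pBOO 2, 10 without tolterodine 1, 12 without tolterodine 3 and 50 without tolterodine 2. Of all 11681 genes, the same runs in that order called 2461, 2412, 2664, 2476, 2722 and 2783 higher. With scan as a fixed block 2 rose and 1 fell, at a median of 0.17, against 23.1% and 16.6% of all genes, and these groups shared no scan.

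Tolterodine with obstruction was also set against sham surgery, on the same sham and tolterodine arrays. For 70 of the 73 genes the tolterodine mean lay between the pBOO and sham means, for 2 it was at or above sham, and for Rpl15 it lay below both. By limma, 3 genes fell and 0 rose (10 and 0 at an unadjusted p under 0.05), against 6.51% and 17.5% of all genes (24% called in all), at a median of -0.21 against 0.09. Among the 3 were Rpl22 (-0.66, adjusted p = 0.0292) and Rpl27a (-0.61, adjusted p = 0.0402). The tolterodine arrays lay wholly below the sham arrays for 9 genes and wholly above for 0, against 15% and 27.1% of all genes.

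Scan also moved this comparison. On the 4 arrays scanned together (sham 2, sham 3, tolterodine 1 and tolterodine 2), 42 genes fell at a median of -0.41, against 22% of all genes. With scan as a fixed block 33 fell, against 16.4%. The array that this leaves out of the tolterodine group, tolterodine 3, is the one with the highest levels, and without it alone 14 fell at a median of -0.37. The count was 0 without sham 2, without sham 3, without tolterodine 1 or without tolterodine 2, it was 6 without sham 1 and 1 without pBOO 3. Of all 11681 genes, 966 fell without tolterodine 3, 1318 without sham 1 and 446 without pBOO 3. In the runs with a count of 0, 175 to 259 of all genes fell. With quantile scaling 1 gene fell, Rpl27a (-0.42, adjusted p = 0.0334), against 9.28% of all genes. Rises were 72.8% of all calls on the main scale, 57.9% with quantile scaling, 62.5% with cyclic loess and 49.1% with the array median.

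Of 5 tested ribosomal proteins and close relatives that the symbol rule leaves out, 4 fell in pBOO, at a median of -0.72, against 22.8% of all genes. With quantile scaling 1 fell, at -0.20, against 21.3%. With tolterodine against pBOO 3 rose on the main scale and 1 with quantile scaling, against 26.6% and 22.5% of all genes. Fau, the source of the small-subunit protein eS30, changed by -0.72 in pBOO, as did Rack1, a scaffold on the small subunit, and both passed on the main scale. Rpl22l1, the paralog of Rpl22, read 4.69, 4.49 and 4.54 on the sham arrays, 3.69, 3.71 and 3.77 on the pBOO arrays and 4.62, 4.48 and 4.88 with tolterodine. It was low on all pBOO arrays, with changes of -0.85 (adjusted p = 0.000995) in pBOO and 0.94 (adjusted p = 0.000587) with tolterodine. Rsl24d1, a biogenesis factor that resembles Rpl24, changed by 0.36 and did not pass. Rpl7l1 and Rsl1d1 had no probe.

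The machinery that makes ribosomes was described from lists chosen with earlier results of these data in view. Among 53 biogenesis genes, 20 fell in pBOO (37.7%) and 1 rose, at a median of -0.30, against 22.8% and 20.5% of all genes. With quantile scaling 18 fell (34%) and 1 rose, at -0.29, against 21.3% and 20.6%. Without scaling 4 rose, at a median of 0.35, which still lay below the 0.61 over all genes. Fibrillarin (Fbl), which methylates ribosomal RNA, read 3.45, 3.09 and 3.19 on the sham arrays, 2.40, 2.19 and 2.20 on the pBOO arrays and 3.02, 2.80 and 2.95 with tolterodine. It changed by -0.97 in pBOO (adjusted p = 0.000592), and Nip7, a late processing factor, by -0.90. Gnl3l, a nucleolar GTPase, was the 1 gene that rose, by 0.75. With tolterodine against pBOO 15 rose (28.3%), a share near the 26.6% of all genes, among them Nip7 (0.85) and Emg1 (0.81).

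Among 66 proteins of the mitochondrial ribosome, 37 fell in pBOO (56.1%, against 22.8% of all genes) and 0 rose (against 20.5%), at a median of -0.49. With quantile scaling 32 fell (48.5%, against 21.3%) and 1 rose, at -0.36. Without scaling 0 fell and 3 rose, against 3.06% and 32.5% of all genes, at 0.16 against 0.61 over all genes. Mrpl18 read 1.72, 2.08 and 1.97 on the sham arrays and 1.12, 0.78 and 0.95 on the pBOO arrays, a change of -0.97 (adjusted p = 0.00132), and Mrpl37 changed by -0.88. With tolterodine against pBOO 28 rose (42.4%, against 26.6%) and 1 fell (against 15.3%), at a median of 0.34, led by Mrps33 (0.85) and Mrpl37 (0.77), and Mrpl52 fell (-0.47). With quantile scaling 21 rose (31.8%, against 22.5%) and 2 fell, at 0.25.

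Of 25 genes of RNA polymerases I and III, which make the ribosomal RNAs, 6 were lower (24%) and 4 higher (16%) in pBOO, shares near the 22.8% and 20.5% of all genes. Polr1e, a subunit of polymerase I, fell (-1.15), while Rrn3, the factor that brings it to the promoter, rose (1.18). Of 35 initiation factors 11 fell (31.4%) and 3 rose (8.57%), at a median of -0.18 that became 0.05 with quantile scaling (14.3% fell, 28.6% rose, against 21.3% and 20.6% of all genes). Eif3i fell (-0.71) and Eif5b, which joins the subunits, rose (0.78). Of 15 elongation and termination factors 5 fell (33.3%) and 1 rose (6.67%), at -0.33, which became 0.08 with quantile scaling (1 fell, 1 rose). Eef1b2 fell (-0.84), and Eef2k, the kinase that inhibits elongation, rose (0.95).

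Of 24 growth signalling genes, 3 fell (12.5%) and 6 rose (25%) in pBOO, against 22.8% and 20.5% of all genes. Myc, a driver of ribosome production, read 0.81, 0.20 and 0.35 on the sham arrays, -0.53, -0.52 and -0.55 on the pBOO arrays and 0.81, 0.89 and 0.78 with tolterodine. It was low on every pBOO array, with changes of -0.98 (adjusted p = 0.00129) in pBOO and 1.36 (adjusted p = 0.000226) with tolterodine. Ddit4 (1.28) and Sesn2 (1.11), inhibitors of mTOR signalling, rose in pBOO. With tolterodine against pBOO 4 rose (16.7%) and 3 fell (12.5%), against 26.6% and 15.3% of all genes, among them Rps6ka1 (1.16) and Rragd (-1.01). Of 13 genes that sense or handle stalled and unassembled ribosomal proteins, 1 fell (7.69%) and 3 rose (23.1%) in pBOO. Mdm2, the target of free Rpl5 and Rpl11, changed by 0.01.

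**Figure D5:**
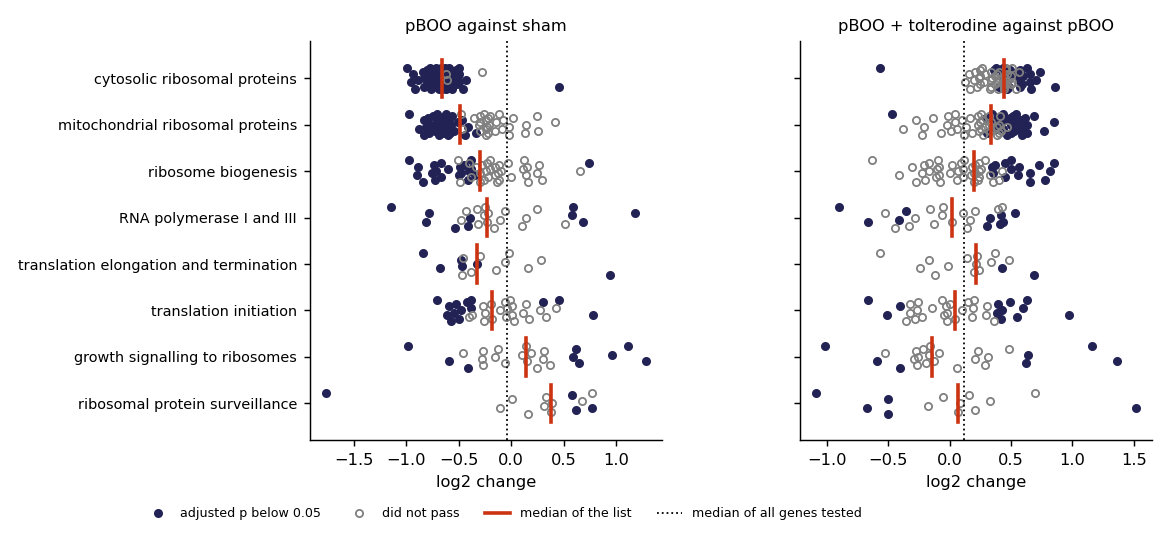
Log2 changes in pBOO against sham (left) and pBOO with tolterodine against pBOO (right) for the cytosolic ribosomal proteins and 7 related lists, 1 point per gene on the 75th percentile scale, filled where limma's adjusted p is below 0.05. Red bars are list medians (-0.66 for the ribosomal proteins, -0.49 for the mitochondrial ribosomal proteins and -0.30 for biogenesis on the left), and the dotted line is the median of all genes tested.

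Markers of several cell types also differed on the pBOO arrays, in both directions. In bulk tissue fewer cells of a type and less RNA per cell cannot be told apart. Levels were summed over each list on the linear scale, in units of the array's 75th percentile. The counts of markers called below stand beside 22.8% of all genes lower and 20.5% higher. The smooth muscle sum (10 genes, 7 higher in pBOO and 0 lower) was 425 to 485 on sham, 545 to 662 on pBOO and 344 to 534 on tolterodine arrays. The urothelium sum (12 genes, 7 lower and 0 higher) was 490 to 531, 264 to 402 and 297 to 416. With quantile scaling the urothelium count became 4 lower and 3 higher, and the median change went from -0.74 to -0.27. The macrophage count became 8 lower, at -0.71 from -0.78. The macrophage sum (10 genes, 7 lower and 0 higher) was 29.5 to 37.8, 15 to 16.6 and 67.4 to 78. The sum for dividing cells (5 genes, all 5 lower) was 10.5 to 15.6, 3.9 to 4.89 and 12.1 to 13.4, and that for neutrophils (5 genes, 4 lower) was 1.78 to 2.84, 0.223 to 0.258 and 4.13 to 4.91. Smooth muscle was thus high, and macrophage, dividing and neutrophil markers low, on all 3 pBOO arrays, the same arrays on which the ribosomal protein genes read low. Other lists went the opposite way in pBOO: endothelium (7 genes, 4 higher and 0 lower), pericyte (6 genes, 4 and 0) and fibroblast (7 genes, 2 and 0). Of 7 nerve and Schwann cell markers 3 fell and 1 rose. Their sum was 87.7 to 93 on sham, 44.7 to 60.3 on pBOO and 54 to 65.8 on tolterodine arrays. In the T and NK, B and mast cell lists at most 1 gene each was called. The part of these cell types in the ribosomal protein values was not tested.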

How the data were processed

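The deposited values are spot intensities of 9 arrays, read with Feature Extraction 11.0.1.1 per the file headers (the submitters' processing notes name 9.1). The processed signal, an intensity with the background subtracted, had no normalization between arrays per the file headers. The median signal and local background intensities deposited by the authors served for normexp (offset 50). The other deposited columns are quality flags of 0 or 1. The log2 processed signal minus each array's 75th percentile was averaged over the spots of a probe, flagged spots included. Probes were kept if well above background on at least 3 arrays. Accessions were matched to RefSeq symbols of GRCr8 (18005 of 30367 probes), and the probe brightest by its mean over 9 arrays stood for its gene. All 9 arrays were fitted together with limma 3.58.1 in R 4.3.3, two-sided, with Benjamini-Hochberg adjustment over 11681 genes and a threshold of 0.05. The fit was tested on simulated data. Alternatives changed the scaling, background correction, flags, filter, probe rule, scan block, replicate block, group names, arrays fitted and eBayes variant, 1 at a time.

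Members and lists were chosen with earlier results of these data known and are not independent support. Named genes are a fixed set of members plus the 5 largest rises and falls past the threshold in each comparison, and the 2 largest each way per related list, and some genes that meet this rule are not reported here. Mdm2 was named after its value was seen, as the partner of Rpl5 and Rpl11. The number of arrays limits the precision.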

Additional observations from a re-analysis of the deposited data

How the results depend on the processing

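In pBOO against sham, the fall of the ribosomal protein genes kept its direction and a count of 55 to 70 under the filters, the mean of all probes, the array median, normexp, robust eBayes, the fit of these groups alone and scan as a fixed or random block. Those runs called 2084 (normexp) to 3194 (array median) of all genes lower. Quantile scaling left 4 lower at a median of -0.069 and cyclic loess 2 at 0.052. No scaling left 0 at -0.008, against 0.608 over all genes, and centring on the family 0 at -0.04. No scaling and centring were added after the data were seen. Centring subtracts the family's median from each array, so in every comparison the loss of a shared change is fixed in advance. Flagged spots set to missing left 11 lower, of 16 genes tested, and the arrays scanned together left 10. The 1 gene called higher became 0 with the array median, normexp, no filter and the replicate block. With the names exchanged the count was 69 higher and 1 lower, at 0.66. Leaving out 1 array gave 0 to 1 higher and 40 to 71 lower, at a median of -0.721 to -0.577.

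In tolterodine against pBOO, the count of 31 higher became 1 with flagged spots missing, 4 with quantile scaling (median 0.061), 1 with cyclic loess (5 lower, median -0.08), 16 with the array median, 20 with no filter, 2 with scan fixed (median 0.171), 4 with scan random, 0 with no scaling (median -0.052) and 1 when centred on the family (median 0.04). The same runs called higher 2849 of all 10961 genes with flagged spots missing and 3207 of 15168 with no filter. Over all 11681 genes they called 2665 higher with the array median, 2941 with scan random and 1227 when centred. With the array median the share of ribosomal protein genes was thus near that of all genes. Exchanged names gave 0 higher and 3 lower, at -0.215. Leaving out 1 array gave 6 to 50 higher and 0 to 1 lower, at 0.288 to 0.549.

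In tolterodine against sham, the count of 3 lower became 1 with flagged spots missing, quantile scaling (median -0.035), cyclic loess (median -0.003), normexp or no filter. It became 14 with the array median, 33 with scan fixed and 42 on the arrays scanned together (both -0.405), 19 with scan random, 5 with robust eBayes, and 0 with these groups alone, no scaling or centring on the family (median 0.004). Over all 11681 genes, 1561 fell with the array median, 1610 with scan random, 912 with robust eBayes, 543 with these groups alone and 330 with normexp. With cyclic loess 958 fell, without scaling 200 and when centred 312. Flagged spots missing gave 714 of 10961 and no filter 529 of 15168. Exchanged names gave 31 higher and 1 lower, at 0.441. Leaving out 1 array gave 0 to 0 higher and 0 to 14 lower, at -0.372 to -0.121.

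Over all 73 genes, 13 were above 0 in pBOO against sham with quantile scaling, 50 with cyclic loess and 36 without scaling, against 1 on the main scale. In tolterodine against pBOO, 26, 55 and 53 were below 0, against 1. Among the named genes that passed on the main scale, these turned their sign. In pBOO against sham they were, with quantile scaling, Rplp1 0.024, Rpl3 0.10 and Rpl10 0.098. With cyclic loess they were Rplp0 0.034, Rplp1 0.18, Rplp2 0.24, Rpsa 0.091, Rpl3 0.21, Rpl10 0.21, Rpl11 0.052, Rpl13a 0.014, Rpl36a 0.092, Rpl39 0.099, Rps3 0.027, Rps14 0.13, Rps27 0.15 and Rpl10a 0.057. Without scaling they were Rplp1 0.061, Rplp2 0.088, Rpsa 0.048, Rpl3 0.16, Rpl10 0.15, Rpl36a 0.086, Rpl39 0.011, Rps14 0.046, Rps27 0.018 and Rps4x 0.20. With the names exchanged they were Rplp0 0.77, Rplp1 0.59, Rplp2 0.56, Rpsa 0.60, Rpl3 0.49, Rpl10 0.50, Rpl11 0.67, Rpl13a 0.74, Rpl22 0.99, Rpl36a 0.57, Rpl39 0.64, Rps3 0.67, Rps6 0.69, Rps14 0.61, Rps18 0.84, Rps19 0.80, Rps27 0.64, Rps27a 0.74, Rps4x 0.46, Rpl15 -0.45, Rps26 0.96, Rpl27a 0.94, Rps13 0.89, Rps20 0.76, Rps2 0.80 and Rpl10a 0.67. In tolterodine against pBOO they were Rpl10 -0.032 with quantile scaling, Rpsa -0.012, Rpl10 -0.14, Rps14 -0.083 and Rps18 -0.079 with cyclic loess, and Rpsa -0.015, Rpl10 -0.13, Rps14 -0.051 and Rps18 -0.051 without scaling. With the names exchanged they were Rpsa -0.13, Rpl10 -0.14, Rpl11 -0.15, Rpl39 -0.071, Rps14 -0.17, Rps18 -0.39, Rps27a -0.17, Rps26 -0.25, Rps13 -0.29, Rps2 -0.066 and Rpl10a -0.009. In tolterodine against sham they were Rpl22 0.33 and Rpl27a 0.33 with the names exchanged. The cause of these changes was not tested, except that exchanged names swap the comparisons by construction and missing spots leave fewer genes. Centring on the family removes a shared change by construction.

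Scaling also moved all genes. Their median in pBOO against sham went from -0.045 to -0.148 with normexp and 0.608 without scaling. In tolterodine against pBOO it went from 0.119 to 0.008 with quantile scaling, 0.019 with cyclic loess and -0.374 without scaling, and against sham from 0.085 to -0.054 with the array median and 0.245 without scaling (85.5% of calls rises). Deviations from the group means correlated weakly between same-numbered arrays of different groups (r from -0.086 to 0.153 over 9 pairs, 1 above 0.1). For differently numbered arrays r ran from -0.168 (pBOO 1 with tolterodine 2) to 0.162 (pBOO 1 with tolterodine 3). The main fit does not pair the arrays by number, and with 3 arrays per group these values cannot exclude pairing. With the replicate block 70 genes fell and 0 rose in pBOO against sham, 35 rose with tolterodine against pBOO, and 3 fell against sham. Over all 11681 genes that run called 2531 lower and 2250 higher, 2893 higher, and 624 lower, in the same order.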
